A study of Homo sapiens with 6 samples.

Results

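ATR and THAP9 are the genes described here, through the H3K9me3 peaks that lay in them. A peak was a member if it shared at least 1 bp with ATR (chromosome 3 from 142168077 to 142297668, hg19) or with THAP9 (chromosome 4 from 83821838 to 83841284, hg19). The loci were chosen by the position, edges, fold enrichment and −log10 q of their peaks, so these values are given as a description and without a test. The 3 deposited peak lists held 27 such peaks among 2826 in all, 22 in ATR and 5 in THAP9. The control list had 19 of 1334, the 6 h list 7 of 1220 and the 24 h list 1 of 272.

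The libraries came from PC-3, an established human prostate adenocarcinoma line grown from a bone metastasis. All cells were starved of serum for 24 h. Controls were then left untreated, and the other cells received the cytokine TGF-β1 at 5 ng/mL for 6 h or 24 h. Each condition gave 1 library immunoprecipitated with an antibody to H3K9me3 and 1 input library of sheared chromatin, 6 libraries in all, so no difference between conditions could be set against a replicate.

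ATR is the kinase at the head of the replication stress checkpoint. With its partner ATRIP it is recruited to single-stranded DNA coated by RPA, is activated there by TOPBP1 or ETAA1, and phosphorylates CHK1 to hold the cell cycle and stabilise replication forks. THAP9 descends from a transposase related to the P element of Drosophila and carries the zinc-binding THAP domain that gives its family its name. H3K9me3, trimethylated lysine 9 of histone H3, is laid down by the SUV39H and SETDB1 methyltransferases, is read by HP1, and is known from satellite repeats, transposable elements and clusters of zinc finger genes. Chromatin sheared by sound has no fixed ends, whereas a spliced copy of a messenger RNA, such as a cDNA in a plasmid, holds exons without introns and gives coverage that stops at exon edges. Exon positions on hg19 were not used here, so the distance of a peak edge to an exon edge was not measured. The edges themselves, the widths, the heights and the local background of the peaks are described instead.

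Control peaks were scattered over most of ATR. ATR runs on the minus strand, with XRN1 and PLS1 as its coding neighbours, and THAP9 on the plus strand between SEC31A and LIN54 (RefSeq, GRCh38.p14, used for names, strand and order alone). The 16 control peaks spanned 104 kb of the 129.6 kb gene and together covered 5156 bp, or 3.98% of it. The gaps between neighbouring peaks ranged from 0.824 kb to 23.6 kb, with a median of 3.55 kb. No list had a peak at the start of ATR: the first lay 15.7 kb into the gene in the control and at 6 h, and 15.8 kb into it at 24 h. At 6 h the 5 peaks covered 3021 bp, and at 24 h the sole peak covered 818 bp. In THAP9 the 3 control peaks covered 2442 bp (12.6% of the 19.45 kb gene), the 2 peaks at 6 h covered 2032 bp, and the 24 h list had none.

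Outside the genes the lists were empty for long stretches. The nearest control peaks to ATR lay 20800 kb before it and 3930 kb after it, with folds of 3.81 and 3.47. At 6 h they lay 18300 kb and 3580 kb away, and at 24 h 57500 kb and 4640 kb away. The nearest control peaks to THAP9 lay 9410 kb before it (fold 5.89) and 46100 kb after it (fold 4.50). The closest peak of any list outside either gene was a 6 h peak 93.4 kb after THAP9, from 83934673 to 83934910, with a fold of 4.75.

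**Figure D1:**
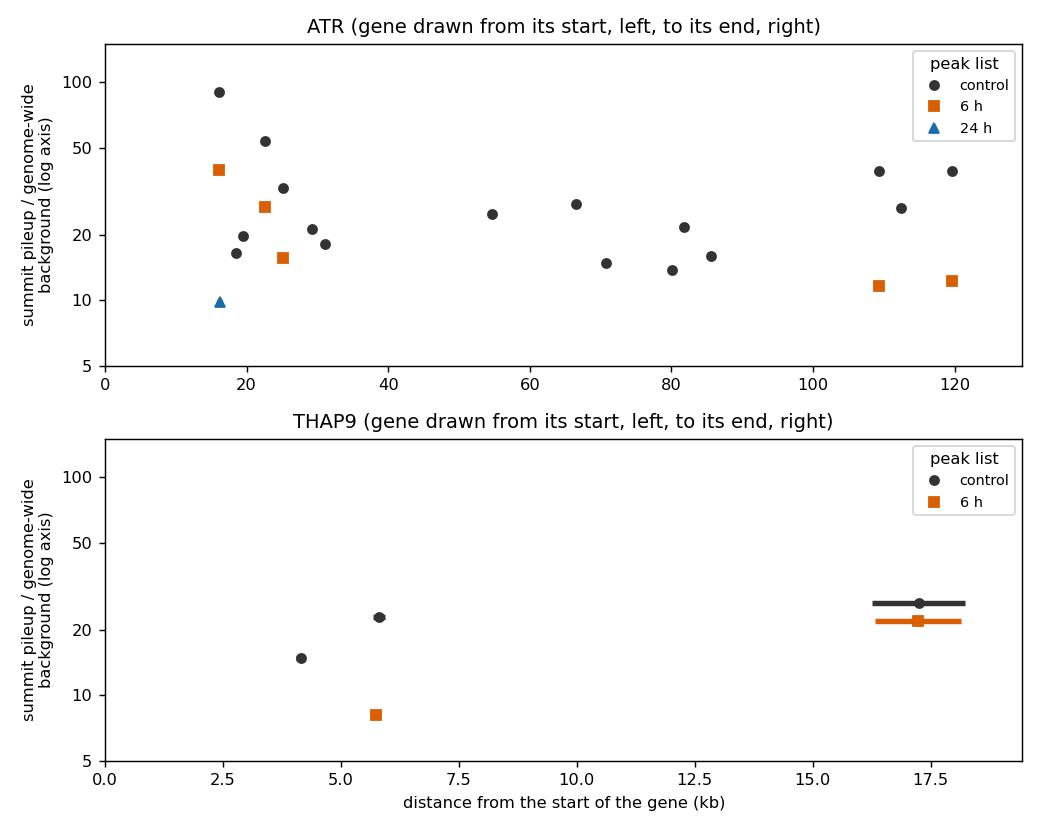
Peaks along ATR (top) and THAP9 (bottom), by distance from the start of the gene in kb and by summit pileup divided by the genome-wide background of the same list, on a log axis. Horizontal bars give peak width to scale and symbols give the list; in ATR the control peak 15.7 kb into the gene is the tallest, at 90.6 times, and peaks at 6 h stand at 5 of the 16 control positions.

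The height of a peak is given below as its summit pileup, the number of fragments over its highest point. It was solved, together with the local background under the summit, from the fold and p-value that the caller wrote, and for all 27 members it came out whole. The genome-wide background, the lowest of each list, came to 1.89 fragments for the control list, 1.73 for the 6 h list and 2.66 for the 24 h list. Fold is the pileup over the local background, each with 1 added, so folds of different lists are not on a common scale. A difference between them measures no change of the mark. The names of the treated peaks mention filtered alignments, unlike those of the control peaks. Whether this bears on pileups compared between lists was not tested.

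The tallest ATR peak lay closest to the start of the gene. From 142281074 to 142281952 (879 bp), it had 171 fragments and a fold of 31.3 in the control, with a −log10 q of 195. At 6 h, 68 fragments stood there with a fold of 25.3, the highest fold of that list, and at 24 h 26 fragments with a fold of 7.37, the third highest of that list. It was the sole ATR position with a peak in every list. Over the genome-wide background of its own list, the control pileup was 90.6 times, that of 6 h 39.4 times and that of 24 h 9.77 times.

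The peak from 142274719 to 142275417 (699 bp) led the control list by fold, at 35.7, with 102 fragments. At 6 h it had a fold of 17.2, the third of that list, with 46 fragments. Between these peaks lay 2 narrow control peaks without a partner in the other lists. Next to it, the peak from 142272069 to 142272858 (790 bp) had 62 fragments and a fold of 15.0 in the control, and 27 fragments and a fold of 10.3 at 6 h.

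A pair of shared peaks lay toward the end of the gene, 109 kb and 119 kb from its start. The peak from 142188179 to 142188413 (235 bp) had 74 fragments in the control and 20 at 6 h, with folds of 26.0 and 7.70. The peak from 142177799 to 142178226 (428 bp) also had 74 fragments in the control, with a fold of 21.0, and 21 fragments with a fold of 8.07 at 6 h. Of the 5 shared positions these had the fewest fragments at 6 h, while in the control the 790 bp peak was the lowest. Divided by the background of each list, the 6 h pileup was 0.296 and 0.310 of the control at these positions, and 0.435, 0.493 and 0.476 at the 879 bp, 699 bp and 790 bp peaks. Over the 60 overlapping control and 6 h pairs outside both genes this ratio ran from 0.431 to 2.96. The loci were chosen by fold, so nothing is read from the difference.

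The other 11 control peaks of ATR had no counterpart after treatment, and all were narrower and lower than the 5 shared ones. Their widths ran from 180 to 213 bp and their pileups from 26 to 52 fragments, against 235 to 879 bp and 62 to 171 fragments at the shared positions, so that neither range overlapped the other. Folds ran from 7.53 to 14.2 (median 9.98), against 15.0 to 35.7 (median 26.0). The lowest control fold of the gene, 7.53, belonged to the peak from 142185164 to 142185376, which had 50 fragments over a raised local background. The highest of these folds, 14.2, belonged to the peak from 142268321 to 142268515, with 40 fragments.

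By position, 3 more of these narrow peaks lay in the first part of the gene, from 142266566 to 142266754, from 142278093 to 142278281 and from 142279106 to 142279296. Their folds were 12.0, 13.0 and 7.60. Toward the middle lay peaks from 142242835 to 142243043, from 142231102 to 142231314 and from 142226773 to 142226952, with folds of 9.90, 12.6 and 9.91. The remaining 3 lay from 142217439 to 142217619, from 142215855 to 142216036 and from 142211973 to 142212155, with folds of 9.29, 9.98 and 10.5. All 11 were in the control list alone.

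The shortest peaks and lowest pileups of each list are given beside these absences. The shortest peak of any kind measured 179 bp (control), 208 bp (6 h) and 192 bp (24 h). Of the 11 narrow control peaks, 8 were shorter than 208 bp and 7 shorter than 192 bp. Among all control peaks, 28.7% were shorter than 208 bp. The lowest pileup that the 6 h list held over its genome-wide background was 10 fragments. The 3 narrow peaks of at least 208 bp had 47 to 52 fragments in the control. The names of the treated peaks also mention filtered alignments, unlike those of the control peaks. Whether these limits or this difference played a part in the absences was not tested.

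In THAP9, the dominant peak was among the widest of the lists. From 83838095 to 83840074, it had 1980 bp in the control, the third widest of 1334 peaks, with 50 fragments and a fold of 17.4. At 6 h, from 83838161 to 83839984, it had 1824 bp, the fourth widest of 1220, with 38 fragments and a fold of 14.3. It lay 16.3 kb into the gene, near its end. Over the genome-wide background the control pileup was 26.5 times and the 6 h pileup 22.0 times, a ratio of 0.831. At the smaller shared THAP9 position the ratio was 0.356, inside the 0.296 to 0.493 of the ATR positions.

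The smaller THAP9 peaks lay closer to the start of the gene. The control peak from 83827515 to 83827780 (266 bp) had 43 fragments and a fold of 13.3. Its 6 h partner from 83827488 to 83827695 had 14 fragments, a fold of 5.50 and a −log10 q of 4.35, the lowest of all members, and its 208 bp equalled the shortest width of that list. The control peak from 83825889 to 83826084 (196 bp, 28 fragments, fold 10.0) had no partner. No THAP9 peak was called at 24 h, where the lowest pileup over the genome-wide background was 13 fragments.

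Within their lists the members stood high by fold. Of the 35 control peaks with a fold of at least 10 (2.62% of the list), 10 lay in ATR, 3 in THAP9 and 21 on chromosome Y. The last one, singled out after its values were seen, was 270 bp wide and lay on chromosome 17 from 44073764 to 44074033; it had 44 fragments and a fold of 10.7. At 6 h, 4 of the 7 members had a fold of at least 10, where 0.902% of all peaks did. The other 7 of the 11 such peaks lay outside both genes and chromosome Y. No peak of the 24 h list reached that fold, so chromosome Y peaks of that fold were in the control list alone. Whether the cells carried chromosome Y, and where the DNA of these peaks came from, was not tested. A −log10 q of at least 5 was reached by 19 of 19 control members (41.3% of the list), 6 of 7 at 6 h (8.85%) and the one at 24 h (60.3%). The loci were picked on these values, so nothing further is read from the shares.

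Peaks that overlapped between the control and 6 h lists were common at the loci, which the choice of the loci also used. In the control list 7 of 19 members overlapped a 6 h peak, against 5.02% of all control peaks, and 7 of 7 members at 6 h overlapped a control peak, against 5.25%. With 24 h, 1 of 19 control members overlapped, against 9.82%. The 24 h member overlapped a control peak, as did 51.5% of the 24 h list.

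The edges of the ATR peaks fell on nearly the same bases in the control and 6 h lists, and those of the THAP9 peaks did not. In ATR, 3 of the 5 overlapping pairs had the same start and the same end to the base, the 879 bp, 699 bp and 235 bp peaks. The 790 bp peak began at the same base and ended 5 bp earlier at 6 h. The 428 bp peak began 4 bp later and ended 1 bp earlier. In THAP9 the wide peak began 66 bp later and ended 90 bp earlier at 6 h, inside the control peak on either side, and the smaller peak was shifted by 27 bp at its start and 85 bp at its end.

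Both edges lay within 10 bp in 5 of 5 ATR pairs and 0 of 2 THAP9 pairs, where 13.4% of all 67 control and 6 h pairs met that limit, the members included. Among the 60 pairs elsewhere 4 did (6.67%), and the median of their summed start and end shifts was 122.5 bp. Elsewhere, 3 pairs had the same start, 6 the same end and 1 both. The edges were known when the loci were chosen, so these counts describe the loci and support nothing further.

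At 24 h the agreement held at one edge of the ATR peak. The 879 bp position began at base 142281074 in all 3 lists, and it ended 61 bp earlier at 24 h, at 142281891. Of 42 sets of overlapping peaks from all 3 lists, this was the sole one with a common start. Common ends were not counted over these sets. On chromosome 5, overlapping peaks ended at 121413174 in the control and at 6 h, and at 121413172 at 24 h. The end shift of the ATR peak kept it outside the 10 bp limit, which 10.0% of control and 24 h pairs and 14.9% of 6 h and 24 h pairs met.

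The summits of the ATR peaks did not share the precision of their edges. On the 879 bp peak the 6 h summit lay 102 bp lower in coordinate than that of the control and the 24 h summit 327 bp lower, while the starts were equal. On the 790 bp peak the 6 h summit lay 172 bp lower and on the 699 bp peak 46 bp lower. On the 428 bp peak it lay 24 bp lower and on the 235 bp peak 22 bp lower. On the wide THAP9 peak the 6 h summit lay 604 bp higher in coordinate than that of the control, and on the smaller one 51 bp lower. Summit shifts of pairs elsewhere were not set beside these, so whether they are unusual was not tested.

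**Figure D2:**
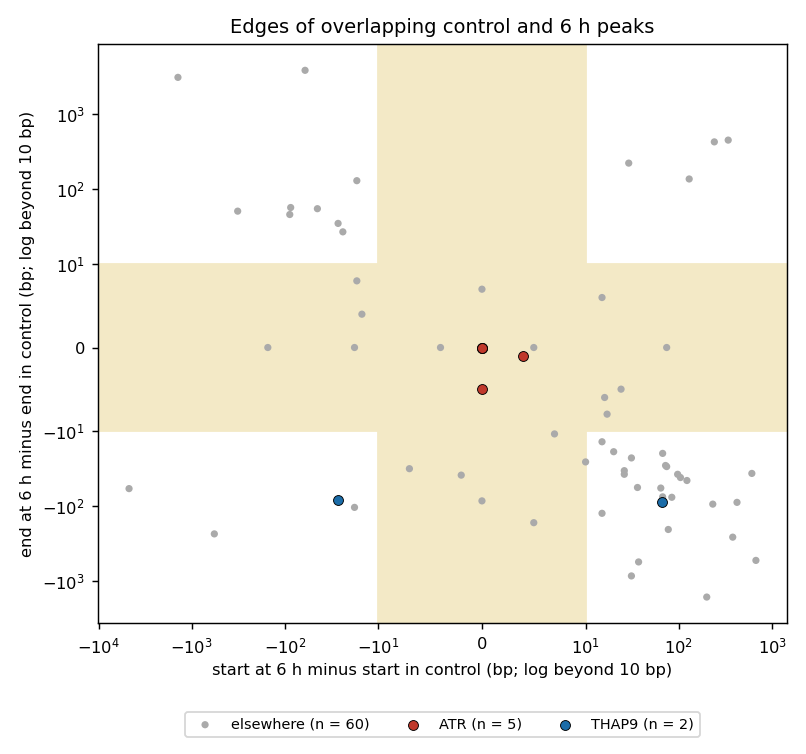
Shift of the start (horizontal) and of the end (vertical) from the control to the 6 h peak, in bp, for each of the 67 overlapping pairs. Axes are linear within 10 bp, marked by the bands, and logarithmic beyond; the 5 ATR pairs, 3 of them on the same point with 1 pair from elsewhere beneath, lie where the bands cross and the 2 THAP9 pairs outside both bands.

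The pairs outside the genes whose edges agreed best had lower control folds. The closest was on chromosome 5 from 115434548 to 115434767, with the same start and end in both lists. Its fold was 2.67 in the control and 8.45 at 6 h, over a local background of 46.2 and 11.8 times the genome-wide one. Next came chromosome 20 from 1433217 to 1433706 (folds 3.39 and 4.85), with a summed shift of 4 bp. On chromosome 10 from 69444100 to 69444439 (7.82 and 9.14) the summed shift was 5 bp, and on chromosome 5 from 89440854 to 89441074 (3.63 and 7.13) it was 7 bp. The fifth, on chromosome 10 from 42400213 to 42400712, had folds of 1.84 and 1.58 over local backgrounds 1310 and 1470 times the genome-wide level. Its summed shift of 18 bp was equalled by a pair on chromosome 8 with folds of 3.70 and 4.99. In the control the local background of the 5 pairs named above by position was at least 3.06 times the genome-wide one. At the 5 shared ATR peaks it was 1.00 to 2.38 times. These ATR peaks were chosen by fold, which for a given pileup is higher over a lower background. A ranking by summed shift leaves out pairs that agreed at one edge alone. One of the 6 pairs elsewhere with the same end, singled out after its values were seen, lay on chromosome 5 from 121412659 to 121413174. At 6 h its start lay 153 bp earlier. It had 17 fragments and a fold of 5.05 in the control, and 46 fragments and a fold of 17.2 at 6 h.

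Widths were also set against heights, for the narrow and the wide peaks of ATR and for THAP9. The edges were known when the loci were chosen, so these widths describe the loci and support nothing further. The 11 narrow control peaks had a median width of 189.0 bp. All of them lay within 34 bp of the shortest width in the list, close to the lower limit of the caller. The 142 control peaks elsewhere with 26 to 52 fragments had a median width of 257.5 bp, and 30 of them (21.1%) were no wider than 213 bp. In 46 of these 142 the local background was under 4 times the genome-wide level; the median width was there 357.5 bp, with 6 peaks no wider than 213 bp. Without chromosome Y the 46 became 26, with a median of 244.5 bp and the same number no wider than 213 bp. The 5 shared ATR peaks had a median of 699.0 bp, against 302.5 bp in 164 peaks elsewhere with 62 to 171 fragments. In 4 of these 164 the local background was under 4 times the genome-wide level. These were wider than any ATR peak, with a median of 1538.0 bp. All lay on chromosome Y, so low background and chromosome Y could not be told apart.

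At 6 h the 5 ATR peaks had a median width of 699.0 bp, against 297.5 bp in 140 other peaks with 20 to 68 fragments. The wide THAP9 peak was wider than all 120 control peaks elsewhere with 28 to 50 fragments. At 6 h 620 of the 621 other peaks with 14 to 38 fragments were no wider than its 1824 bp. The ATR peak at 24 h, with 818 bp, was the second widest of that list.

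**Figure D3:**
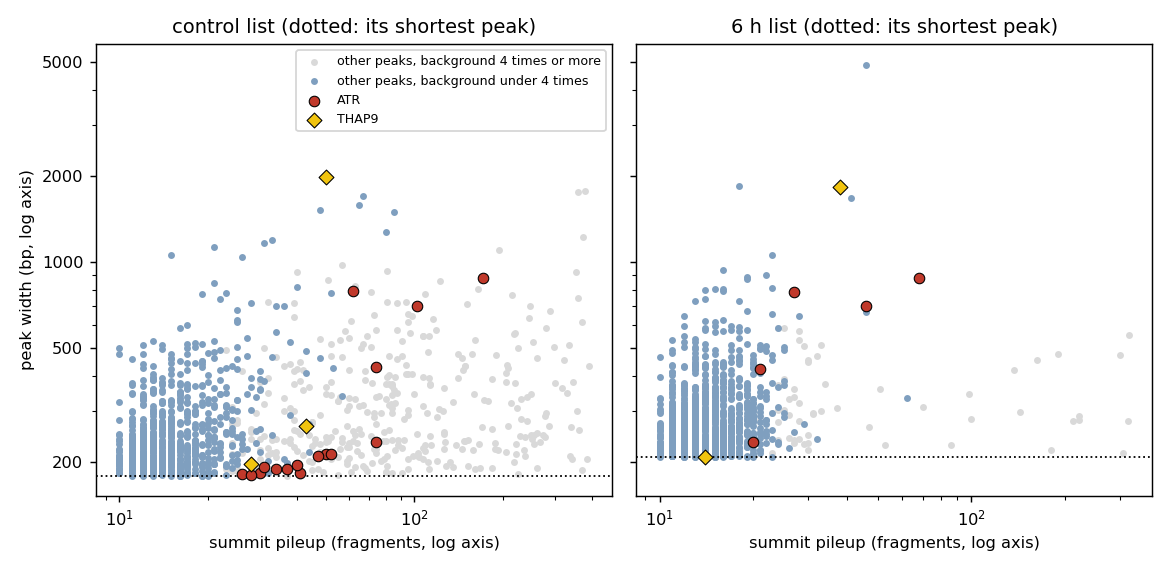
Peak width in bp against summit pileup in fragments, both on log axes, for peaks with a whole pileup of at most 400 fragments in the control (left) and 6 h (right) lists. Members are the large symbols, other peaks are split by local background, and the dotted line is the shortest peak of the list; 11 of the 16 control ATR peaks lie just above that line at 26 to 52 fragments, where most other peaks are wider.

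The local background under the ATR peaks was raised at some positions in the control, and at none of the positions with a peak after treatment. Of the 7 raised control positions, 2 had a 6 h peak, and for the other 5 the 6 h list gives no background. It is the highest of several averages around the summit, which by their steps were made from the scaled input. In the control it was at least 1.5 times the genome-wide level at 7 of 19 members, all of them in ATR, where 58.7% of all control peaks with whole pileups met that level. The members' share was below that of the list. The loci were chosen by fold, which for a given pileup is higher over a lower background, so nothing is read from this share. The highest value was 3.06 times, at the peak from 142185164 to 142185376, followed by 2.38 times at the 879 bp peak and 2.04 times at the peak from 142242835 to 142243043. At the peak of highest fold, from 142274719 to 142275417, it equalled the genome-wide level. In THAP9 it was 1.00, 1.22 and 1.02 times.

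Read as whole input fragments, these backgrounds correspond to 9 fragments at the first of these peaks, 7 at the 879 bp peak and 6 at the third, where 2.94 per window was the genome-wide level. At 4 further ATR peaks, among them the 790 bp one, 5 input fragments were recovered. At 6 h all 7 members had the genome-wide background itself, where 45.9% of all 6 h peaks with whole pileups had at least 1.5 times that level. This too follows a choice by fold, so nothing is read from the difference. The 6 h input was the deeper relative to its ChIP library, with 5.09 input fragments per ChIP fragment against 1.56 in the control. A background at the genome-wide level there allows at most 8 input fragments in the window, where 8.78 would be the genome-wide level. The 24 h member also had the genome-wide background. Whether the input held DNA of the same kind as the ChIP library at these positions was not tested.

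**Figure D4:**
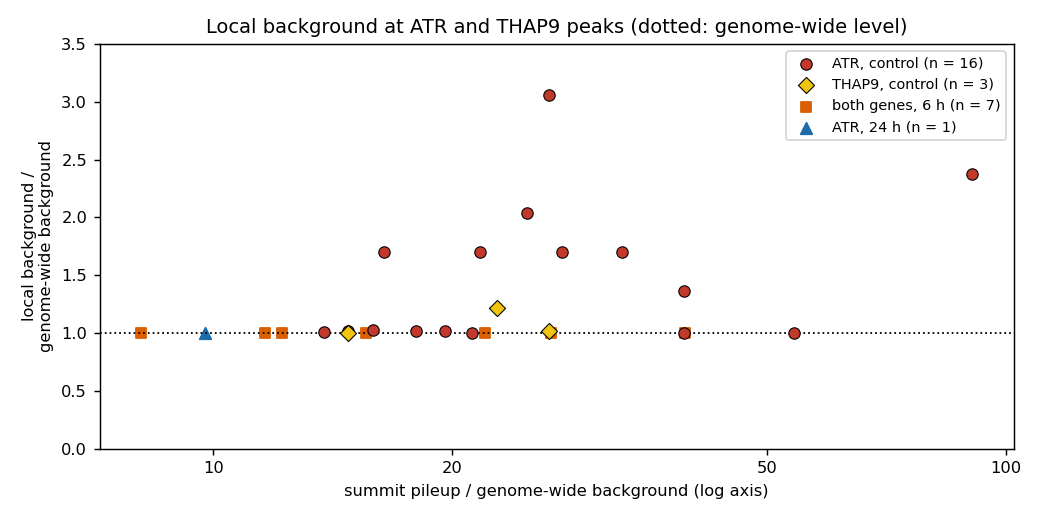
Local background under each member's summit (vertical) against its summit pileup (horizontal, log axis), both divided by the genome-wide background of the same list. Control ATR peaks reach 3.06 times on the vertical axis, and all members at 6 h and 24 h lie on the dotted line at the genome-wide level.

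Whether the DNA behind the ATR and THAP9 peaks came from chromatin carrying H3K9me3, from a spliced copy or from another source was not tested. Peaks at ATR and THAP9 differed in the measures above: shared edges to within 5 bp between the control and 6 h were seen in ATR, and edges 27 to 90 bp apart in THAP9. A label of these peaks by exon shape rests on exon positions that were not used here.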

How the data were processed

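The submitters' processing notes name the tools Trimmomatic, FastQC 0.11.9, MACS2 2.1.1.20160309 for peaks, BWA, and the build hg19 (GRCh37), with thresholds not given in the sources used here. The deposited lists, 1 per ChIP library, give each peak's position, an integer score, the fold enrichment (a linear ratio) and the −log10 p-value and −log10 q-value of its summit, all by the authors. In the names of its peaks, each treated list mentions filtered alignments, unlike the control list. The members and comparisons were chosen with earlier results of these data known.

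Summit pileup and local background were solved from fold and p under a Poisson model; 200 of 200 simulated summits were recovered. Pileups were whole, within 0.01, for 98.6%, 98.8% and 89.7% of peaks (control, 6 h, 24 h). Backgrounds between the genome-wide level and 4 times it were whole multiples of a step, within 0.003 fragments, in 46.3% of control and 40.4% of 6 h peaks, where spacing alone gives 0.935% and 3.05%. The step was read as 1 scaled input fragment in a window as long as the shortest peak; at 24 h no step was used. Read totals are unknown. Positions are 1-based. All members are named, with full values for those in several lists and at the extremes of fold. SciPy 1.17.1 and pandas 2.3.3 were used.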

Additional observations from a re-analysis of the deposited data

How the results depend on the processing

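No paired analysis was possible because there was 1 ChIP library a condition. Requiring the summit inside the gene, widening the genes by 50 kb, or keeping folds at or above the list median left the number of ATR and THAP9 peaks within 1.5 times in every list. With a −log10 q of at least 5, THAP9 kept 1 of its 2 peaks at 6 h. Edge limits of 5, 20 and 50 bp and an overlap of at least 50% of each peak left 5 of 5 ATR and 0 of 2 THAP9 control and 6 h pairs within the limit. With a −log10 q of at least 5 in both lists it was 5 of 5 and 0 of 1. Elsewhere, the pairs within the limit rose from 4 to 13 (20 bp) and 22 (50 bp) for control and 6 h, since a wider limit admits more pairs. For control and 24 h they went from 14 to 5 (5 bp), 30 (20 bp) and 66 (50 bp), and for 6 h and 24 h from 7 to 3, 13 and 26. Away from both genes, 1.67% of control peaks had a fold of at least 10. Of 101 alternative values, 91 moved by less than 1.5 times or within their 95% interval and 10 by more. This tally is no measure of robustness, since some outcomes were fixed in advance. Each of the 27 member pileups was only set beside its own unrounded value, already known to be whole within 0.01. The 91 also include a fall from 13.4% to 6.67%, away from both genes, in the control and 6 h pairs with agreeing edges. The comparisons with exons and with other genes of the ATR pathway, and their alternatives, need hg19 gene models and were not run.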
